A study of Mus musculus with 11 samples.

Results

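The regions described here are stretches of open chromatin that were listed as peaks in WT wounded keratinocytes and in none of the 3 other keratinocyte samples of the same study. They were selected on the peak lists themselves. The 4 lists were joined, overlapping and touching peaks were merged, and a merged region was kept if it held a WT wounded peak and no WT unwounded, *Grhl3*-cKO unwounded or *Grhl3*-cKO wounded peak. This gave 9852 of 42950 merged regions, or 9852 of the 36774 regions with a WT wounded peak.

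Keratinocytes were sorted from the back skin of 8-week-old C57BL/6 littermates, C57BL/6J by the study's methods. They came either from the margin of punch wounds at day 3 or from unwounded skin away from the wound. The WT mice carried *Krt14-Cre*, and the *Grhl3*-cKO mice carried *Krt14-Cre* with floxed *Grhl3* alleles, so that deletion was driven in cells with *Krt14* promoter activity. ATAC-seq gave 1 sample per condition, each pooled from 4 wounds of 2 mice, and so had no replicates. RNA-seq had 2 samples each of WT unwounded, WT wounded and *Grhl3*-cKO wounded keratinocytes and 1 of *Grhl3*-cKO unwounded keratinocytes, with 13497283 to 16807451 counts on genes per sample. Nothing in the labels says whether the RNA replicates came from separate mice, so p-values measure only the spread between these samples.

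ATAC-seq marks DNA that a transposase can reach, which includes active promoters and the distal enhancers that bind transcription factors. In keratinocytes at a wound edge, genes for cytoskeleton, matrix adhesion and cell junctions are known to be regulated as the sheet of cells migrates. AP-1 factors act at many keratinocyte enhancers, and GRHL3 is a Grainyhead factor of the epidermis.

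The libraries carried keratinocyte RNA. *Krt14*, a basal keratin, lay between 12190 and 19442 CPM (counts scaled to the size of the library) in the 7 RNA libraries. *Grhl3* itself did not check the genotype labels at the level of the whole gene. The WT unwounded libraries had 1893 and 1398 *Grhl3* counts. There were 1831 and 1388 in the WT wounded, 1029 in the library labelled *Grhl3*-cKO unwounded and 1765 and 1491 in those labelled *Grhl3*-cKO wounded. The counts are per gene and do not show which exons they came from. The *Grhl3*-cKO unwounded library also stood apart in sex-linked genes: it had 14854 *Xist* counts and 0 of *Ddx3y*, whereas the 6 other libraries had 3 to 32 *Xist* counts and 1368 to 1852 of *Ddx3y*.

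The 4 peak lists were of very unequal length, which the choice of regions depends on directly. WT wounded keratinocytes had 36872 peaks, *Grhl3*-cKO unwounded 29364, *Grhl3*-cKO wounded 22474 and WT unwounded 10769. The share of a list's regions found in that list alone was 26.8% for WT wounded (Wilson 95% interval 26.3 to 27.2), 13.0% for *Grhl3*-cKO unwounded, 6.68% for *Grhl3*-cKO wounded and 1.60% for WT unwounded. The order of these shares was the order of list length. When each list was shortened to its 10769 strongest peaks, 1428 regions were listed only in WT wounded keratinocytes, and 285 of them overlapped the 9852. Sequencing depth of the ATAC-seq libraries was not used here, and its part in the difference between lists was not tested.

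The regions only in WT wounded keratinocytes were short and of modest enrichment. Fold enrichment over background, as the peak caller gave it, had a median of 3.73 and ran from 1.77 to 6.67. It had a median of 4.48 in the 26922 WT wounded regions shared with at least 1 other list and of 5.24 in the 9524 regions of all 4 lists. The −log10 p of the peak had a median of 4.69 and a maximum of 12.4, against a median of 6.70 in the shared regions. Of the 9852 regions, 1216 exceeded the shared regions' median fold enrichment and 733 their median −log10 p. Median width was 276 bases, and each region held 1 WT wounded peak. Over all WT wounded peaks, which include these, the median was 421 bases. It was 580 in the shared regions. Those join a WT wounded peak with peaks of at least 1 other list, so merging itself adds to their width. These values helped to choose the regions and are given as a description.

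By distance, another list's peak lay within 100 bases of 95 regions (0.964%), within 1000 bases of 769 (7.81%) and within 10000 bases of 4403 (44.7%). By strength many lay near the peak caller's limit: their −log10 q began at 1.03 and had a median of 2.28, and 5122 of the 9852 were in the lowest quartile of WT wounded regions by −log10 p. Just inside the limit of overlap was an intergenic region nearest to *Apoc2*, chr7:19669587-19669771, with a fold enrichment of 3.34 and a gap of 1 base to the nearest peak of another list. Just outside it was an intronic region of *Dapk2*, chr9:66240508-66240984, with a fold enrichment of 3.60 and 1 base covered by another list.

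Most of the regions were distal. Intergenic DNA held 46.1% (95% interval 45.2 to 47.1) and introns 39.7% (38.7 to 40.6), while 11.6% (11 to 12.2) lay within 1000 bases of a protein-coding transcript start. Promoters held 33.1% (32.5 to 33.7) of the shared WT wounded regions and 50.6% (49.6 to 51.6) of regions in all 4 lists. The lower promoter share was also seen among peaks of like strength. In the lowest quartile of WT wounded regions by −log10 p, 12.8% (11.9 to 13.7) of the regions only in WT wounded keratinocytes and 23.8% (22.5 to 25.1) of the shared ones were at promoters. In the third quartile the shares were 8.65% (7.31 to 10.2) and 31.0% (30.0 to 32.0). The highest quartile held 149 of the 9852 and ran up to 158.5, far above their maximum of 12.4, so strength was not alike there. The regions listed only in *Grhl3*-cKO unwounded keratinocytes had a promoter share of 13.8% (12.7 to 14.9) and those only in *Grhl3*-cKO wounded 10.7% (9.20 to 12.3), so that a low promoter share was common to regions of a single list. Intervals cover counting error only.

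Base composition differed as well. Median GC content was 49.0% in the regions only in WT wounded keratinocytes, 52.0% in the shared WT wounded regions and 56.5% in regions of all 4 lists. The letters GGGCGG, bound by SP and KLF factors, were in the central 200 bases of 11.3% (10.7 to 11.9), 24.2% (23.6 to 24.7) and 34.8% (33.8 to 35.7) of these, against 40.0% of the 200 bases around protein-coding transcript starts. A low share was again common to regions of a single list: 12.5% (11.4 to 13.6) in those only in *Grhl3*-cKO unwounded and 9.33% (7.95 to 10.9) in those only in *Grhl3*-cKO wounded keratinocytes, with a median GC content of 49.0% and 47.5%. All motifs were searched on both strands, and a match is a description of the letters only.

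The AP-1 letters TGANTCA were in the central 200 bases of 22.5% (21.6 to 23.3) of the regions only in WT wounded keratinocytes, 21.4% (21.0 to 21.8) of all 42950 regions and 3.99% of the 200 bases around transcript starts. In this window the share was thus close to that of all regions. Among peaks of like strength it was higher in the middle quartiles of −log10 p. In the second quartile it was 24.2% (22.8 to 25.8) against 20.1% (19.1 to 21.1) in the shared regions, and in the third 28.4% (26.1 to 30.8) against 22.2% (21.3 to 23.1). In the lowest quartile the shares were 19.6% (18.5 to 20.7) and 19% (17.8 to 20.2), and in the highest 26.2% (19.8 to 33.8) and 22.1% (21.2 to 22.9), with overlapping intervals in both. Without regard to strength, AP-1 shares were 25.8% (23.7 to 28.1) in regions only in *Grhl3*-cKO wounded keratinocytes, 24.9% (23.0 to 26.8) in those of both wounded samples only and 19.4% (18.2 to 20.7) in those only in *Grhl3*-cKO unwounded keratinocytes, so that a share as high was not particular to the 9852. The GRHL letters AACCNGTT were in 2.88% (2.57 to 3.23) of the regions and 2.65% (2.50 to 2.81) of all regions, which include them, with overlapping intervals. The share was 1.98% (1.58 to 2.48) in regions only in *Grhl3*-cKO unwounded and 1.88% (1.30 to 2.70) in those only in *Grhl3*-cKO wounded keratinocytes, and 3.71% (2.97 to 4.64) in those of both wounded samples only. In whole regions, whose median width was 276 bases against 449 over all regions, both shares were lower than over all regions: 28.2% (27.3 to 29.1) against 34.4% (33.9 to 34.8) for AP-1 and 4.14% (3.77 to 4.55) against 5.73% (5.52 to 5.96) for GRHL.

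The strongest regions lay near genes of several kinds. The highest value of both measures was 43059 bases before the start of *Mmp2*, a gelatinase of the matrix, at chr8:92784078-92784386, with a fold enrichment of 6.67 and a −log10 p of 12.4. A second region 54922 bases before *Mmp2* had a fold enrichment of 5.66. *Mmp2* RNA was 24.7 and 19.4 CPM in WT unwounded and 21.2 and 14.6 CPM in WT wounded libraries, so the groups overlapped. Next by −log10 p came an intron of *Slit3*, a secreted guidance protein (10.9), and regions before *Elp6* and *Prdm8* (both 10.8). The other nearest genes among the 10 highest of either measure were *Zfp563*, *Trim17*, *Ppp1r3g*, *Vav1*, *Cop1*, *Cd24a* and *Nfyb*. Among these genes *Ppp1r3g* was not tested because of low counts, and *Prdm8* was at or below 0.967 CPM in every library. *Cd24a*, a surface glycoprotein, was 99.0 and 102.7 CPM in WT unwounded and 123.0 and 184.9 CPM in WT wounded libraries, a log2 fold change of 0.61, and of 0.28 without WT wounded replicate 2. *Nfyb*, a subunit of the CCAAT-binding factor NF-Y, was 66.2 and 73.6 CPM in WT wounded and 79.1 and 117.9 CPM in *Grhl3*-cKO wounded libraries (0.49, and 0.18 without *Grhl3*-cKO wounded replicate 2). These were the only genes of this group with an unadjusted P under 0.05 in either RNA comparison, and neither passed after adjustment.

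The regions were spread unevenly over genes. The 9852 regions had 5770 nearest genes, of which 3672 were nearest to 1 region and 15 to 10 or more. *Flrt3*, a membrane adhesion protein, was nearest to 17, between chr2:140585173-141587589, and to 38 other merged regions. All 17 were in an intron of some protein-coding gene. Of these, 1 lay 86110 bases after the *Flrt3* start. The others lay 71734 to 916028 bases before it and so were not in *Flrt3* introns. *Sox9*, a transcription factor of hair follicle stem cells, was nearest to 16, between chr11:112055929-113134182, with fold enrichments of 3.21 to 4.93. *Tbl1xr1* had 16, and *Gata3*, a transcription factor of epidermis and follicle, and *Acvr2a*, an activin receptor, had 14 each. Other merged regions were also nearest to these genes: 42 to *Sox9*, 23 to *Tbl1xr1*, 33 to *Gata3* and 20 to *Acvr2a*. The 14 of *Acvr2a* lay 184381 to 1584054 bases from its start, and the 14 of *Gata3* 52679 to 1207454. None of these 5 genes had an unadjusted P under 0.05 in either RNA comparison. *Sox9* RNA, for example, was 647.3 and 612.5 CPM in WT unwounded and 663.5 and 458.4 CPM in WT wounded libraries.

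Over all protein-coding genes, 5770 of 21924 symbols were nearest to at least 1 of the regions. In a list of 19 transcription factor genes of the epidermis, 14 were, and together they were nearest to 80 of the 9852, among them *Maf* with 11 and *Runx1* with 8. Among 11 AP-1 and stress genes, 8 were nearest to 22 regions, of which *Jun* had 10, all intergenic. *Jun* was also nearest to 14 other merged regions. *Jun* RNA was 2142 and 1785 CPM in WT unwounded and 2587 and 2069 CPM in WT wounded libraries, with overlapping groups. Of 11 ephrin and Eph receptor genes, 6 were nearest to 32 regions. *Efnb2* was the nearest gene of 12 of these, at 203420 to 1529339 bases from its start, and of 32 other merged regions. The 4 stress keratin genes were nearest to 0.

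Several genes named for the wound front had no such region. *Fscn1*, which encodes the actin-bundling protein fascin, had 0. Its region 1527 bases before the start, chr5:142958681-142958951, was listed in both wounded samples, with a fold enrichment of 4.81 in WT and 3.98 in *Grhl3*-cKO. Its intronic region, chr5:142963258-142963771, was listed in all but WT unwounded keratinocytes, at 4.13 in WT wounded, 4.02 in *Grhl3*-cKO unwounded and 4.01 in *Grhl3*-cKO wounded. *Krt16*, *Krt17*, *Itga5*, *Cdh1* and *Arhgef19* likewise had 0. *Col17a1*, a hemidesmosome collagen, had 3, all intergenic and 6369 to 18370 bases before its start, *Pdpn*, the membrane glycoprotein podoplanin, had 1 in an intron, and *Grhl3* had 1, 24912 bases before its start. Another list's peak lay 593 bases from the *Pdpn* region. *Pdpn* also had an intronic region in all 4 lists, at 7.44 in WT wounded and 4.82 in WT unwounded. A further one was listed in all but *Grhl3*-cKO unwounded, at 3.10 in WT wounded and 3.71 in WT unwounded.

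Sequences are shown for regions near genes named above and near *Nrg1*, which is described further on, because they hold matches to the AP-1 or GRHL letters. They are the plus strand of the GRCm38 (mm10) reference, 5′ to 3′, whole or the central 300 bases, with AP-1 and GRHL letters in capitals. Those of *Slit3* and *Nrg1* are in introns and the others are intergenic, and none overlaps an annotated exon.
Slit3 chr11:35310549-35310848: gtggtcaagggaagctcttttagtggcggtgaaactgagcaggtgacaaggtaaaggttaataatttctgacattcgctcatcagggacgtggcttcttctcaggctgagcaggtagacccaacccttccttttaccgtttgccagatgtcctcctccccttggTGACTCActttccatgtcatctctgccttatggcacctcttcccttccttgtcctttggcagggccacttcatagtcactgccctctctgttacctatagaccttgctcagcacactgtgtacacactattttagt
Prdm8 chr5:98108536-98108835: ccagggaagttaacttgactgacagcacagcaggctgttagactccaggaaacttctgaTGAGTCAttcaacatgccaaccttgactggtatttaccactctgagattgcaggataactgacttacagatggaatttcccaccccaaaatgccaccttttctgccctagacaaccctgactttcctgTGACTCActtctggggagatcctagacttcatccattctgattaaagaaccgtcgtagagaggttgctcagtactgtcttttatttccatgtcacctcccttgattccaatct
Cd24a chr10:43689845-43690135: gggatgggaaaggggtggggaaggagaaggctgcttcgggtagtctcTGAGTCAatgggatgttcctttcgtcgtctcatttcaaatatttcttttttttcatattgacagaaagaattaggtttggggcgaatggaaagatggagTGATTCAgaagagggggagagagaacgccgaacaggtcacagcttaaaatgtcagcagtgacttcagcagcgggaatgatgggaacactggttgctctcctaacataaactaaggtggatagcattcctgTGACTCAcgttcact
Cop1 chr1:159199650-159199949: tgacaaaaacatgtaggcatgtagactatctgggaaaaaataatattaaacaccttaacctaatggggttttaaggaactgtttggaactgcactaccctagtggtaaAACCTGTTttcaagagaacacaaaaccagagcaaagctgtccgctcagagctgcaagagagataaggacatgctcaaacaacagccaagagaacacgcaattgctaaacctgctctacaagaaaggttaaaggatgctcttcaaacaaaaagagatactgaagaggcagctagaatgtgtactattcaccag
Grhl3 chr4:135598418-135598667: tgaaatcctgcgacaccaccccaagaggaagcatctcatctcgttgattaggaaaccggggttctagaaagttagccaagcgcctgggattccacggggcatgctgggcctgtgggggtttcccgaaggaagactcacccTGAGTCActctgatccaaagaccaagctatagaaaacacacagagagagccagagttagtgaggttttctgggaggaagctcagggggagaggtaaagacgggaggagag
Col17a1 chr19:47698355-47698572: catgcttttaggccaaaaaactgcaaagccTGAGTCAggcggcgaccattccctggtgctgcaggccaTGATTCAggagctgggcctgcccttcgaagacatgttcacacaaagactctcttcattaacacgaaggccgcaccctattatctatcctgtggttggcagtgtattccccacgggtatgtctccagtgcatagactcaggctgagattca
Nrg1 chr8:32043101-32043304: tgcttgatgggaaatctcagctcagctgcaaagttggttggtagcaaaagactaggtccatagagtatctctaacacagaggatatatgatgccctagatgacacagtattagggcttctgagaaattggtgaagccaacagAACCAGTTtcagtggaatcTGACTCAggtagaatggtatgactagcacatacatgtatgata
The *Cd24a* region held 3 AP-1 matches, those of *Prdm8* and *Col17a1* held 2 each, and the *Nrg1* region held 1 AP-1 and 1 GRHL match.

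The RNA comparison of WT wounded with WT unwounded keratinocytes asked which nearest genes differed in level with wounding. A TGF-β feedback gene and an actin-binding gene near the regions rose. *Pmepa1*, a TGF-β target that restrains TGF-β signaling, was 41.3 and 45.7 CPM in unwounded and 98.6 and 130.4 CPM in wounded libraries. *Cald1*, the actin-binding protein caldesmon, was 35.6 and 52.4 CPM in unwounded and 109.8 and 161.2 CPM in wounded libraries. In both genes each wounded library was above each unwounded one. On the log2 scale *Pmepa1* rose by 1.40 ± 0.20 (SE), and its adjusted p was 0.0126 in edgeR's quasi-likelihood test, after Benjamini-Hochberg correction over 14045 genes. *Cald1* rose by 1.62 ± 0.25 (SE) on that scale, and its Benjamini-Hochberg adjusted p in the edgeR quasi-likelihood test was 0.0258. Their regions were intronic, with fold enrichments of 2.99 for *Pmepa1* and 3.05 to 3.39 for the 3 of *Cald1*. Both calls were lost without WT unwounded replicate 1 (*Pmepa1* adjusted p = 0.195, *Cald1* 0.221), without WT unwounded replicate 2 (0.0908 and 0.0640), without WT wounded replicate 2 (0.0629 and 0.111), with only the 4 libraries compared (0.303 and 0.411) and with at least 10 counts in every library (0.0694 and 0.131), by the same edgeR quasi-likelihood test and Benjamini-Hochberg adjustment. By DESeq2 both calls were kept (adjusted p 5.6e-07 for *Pmepa1* and 9.2e-06 for *Cald1*). The edgeR test also kept both with RLE normalization (adjusted p 0.0119 and 0.0235) and with no filter on low counts (1.6e-08 and 5.5e-11). The log2 fold changes stayed between 1.17 and 1.58 for *Pmepa1* and between 1.31 and 1.93 for *Cald1* when a replicate was left out. *Acta2*, the smooth muscle actin gene and a marker of mural cells, was 0.574 and 2.26 CPM in the same unwounded and 16.4 and 10 CPM in the same wounded libraries, and the part of such cells in these rises was not tested.

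Of the 5770 nearest genes, 4372 passed the filter on low counts and were tested. At an unadjusted P under 0.05, 299 of them passed, 6.84%, beside a background of 4.84% over all genes tested. Of these, 213 were higher in wounded cells (background 3.18%) and 86 lower (background 1.67%), and 2 kept a Benjamini-Hochberg adjusted p under 0.05 in the quasi-likelihood test of edgeR (background 0.0285%). By DESeq2 319 passed at an unadjusted P under 0.05, 7.30% beside 5.23% over all genes, and 16 kept an adjusted p under 0.05. With only the 4 libraries compared by edgeR, 0 kept one. Without WT wounded replicate 1 the counts were 197 higher and 157 lower, 8.19% in all beside 5.57% over all genes, with 14 under 0.05 after adjustment. The median log2 fold change was 0.032, against 0.003 over all genes. The share passing was 7.54% for genes nearest to regions of both wounded samples only, 6.53% for those of WT wounded and *Grhl3*-cKO unwounded only, 5.99% for those of all but WT unwounded and 4.65% for those of all 4 lists. The shares for genes near other WT wounded regions were thus above the background as well, apart from that for regions of all 4 lists. For genes with one of the 9852 regions at a promoter the share was 6.24%. A gene can be nearest to regions of several classes, so these gene sets share genes. Median levels per library were 26.8 to 27.8 CPM in the 4372 genes and 18.7 to 19.9 CPM in all protein-coding genes tested. They were 17.0 to 18.6 CPM in the genes with a region at a promoter. The part of level in the shares here and further on was not tested.

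The largest differences among the 10 genes with the smallest P that met the level and overlap conditions included *Nav1* and *Limch1* upward and *Tmtc1* downward. *Nav1*, a microtubule-associated protein, was 1.91 and 4.57 CPM against 15.9 and 37.4 CPM (log2 fold change 3.03), and *Limch1*, which acts on non-muscle myosin, 9.0 and 2.43 CPM against 25.8 and 23.9 CPM (2.13). *Tmtc1* was 26.2 and 25.9 CPM in unwounded and 9.60 and 10.7 CPM in wounded libraries (−1.36). By edgeR none of these 3 passed after Benjamini-Hochberg adjustment, whereas by DESeq2 all 3 did, with an adjusted p of 0.00103 for *Nav1*, 0.00706 for *Limch1* and 0.0250 for *Tmtc1*. By edgeR *Limch1* passed without WT unwounded replicate 1, where its log2 fold change was 3.35 (adjusted p 0.00587), and *Nav1* without WT wounded replicate 1, where it was 3.51 (adjusted p 0.00600). Leaving out a replicate also gave values as low as 1.47 for *Limch1* and 2.28 for *Nav1*.

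In the list of 28 leading edge and actin genes, 13 were nearest to a region, and 7 of these 13 were higher in WT wounded keratinocytes at an unadjusted P under 0.05, with 0 lower and a median log2 fold change of 0.438, beside a background of 3.18% higher over all genes. Over the whole list 9 of 28 were higher. *Pdpn* was 2.68 and 4.80 CPM in unwounded and 13.1 and 49.4 CPM in wounded libraries, a log2 fold change of 3.05, and of 1.79 without WT wounded replicate 2. *Pxn*, the focal adhesion adaptor paxillin, had the most regions of the list, 5, and was 88.1 and 62.9 CPM against 88.8 and 76.1 CPM. The gene with the most regions in the list was therefore not one with a difference past the spread of its libraries.

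Of 11 integrin genes 7 were nearest to a region and 3 of the 7 were higher, and 4 of the 11 with or without a region, beside the same background of 3.18%. *Itga2*, a collagen-binding integrin chain, was 20.2 and 21.5 CPM in unwounded and 28.0 and 62.0 CPM in wounded libraries, a log2 fold change of 1.11, and of 0.42 without WT wounded replicate 2. *Itgb6*, a chain of an integrin that activates TGF-β, had 2 regions, 1 of them at its promoter, and was 43.2 and 40.0 CPM against 76.4 and 49.0 CPM (0.59, and 0.23 without WT wounded replicate 1). In the EGF family 8 of 11 genes were nearest to a region and 1 of the 8 was higher, the only one of the 11. This was *Nrg1*, a ligand of ERBB receptors, with 4 intronic regions and 7.15 and 5.32 CPM in unwounded and 15.2 and 20.4 CPM in wounded libraries (1.51).

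Among 24 junction genes 13 were nearest to a region and 2 of them were higher, with 3 of 23 tested higher over the whole list. The background for this and the lists below was 3.18% higher and 1.67% lower over all genes tested. *Gjb6*, a connexin, was 3.96 and 5.15 CPM in unwounded and 9.90 and 26.9 CPM in wounded libraries (log2 fold change 2.01, and 1.11 without WT wounded replicate 2). Among 15 matrix protease and inhibitor genes 7 were nearest to a region and 2 of them were higher, with 5 of 15 higher over the whole list. *Timp3*, a metalloprotease inhibitor, was 81.4 and 58.2 CPM against 218.2 and 67.0 CPM (1.03), and −0.06 without WT wounded replicate 1. In the TGF-β list 11 of 16 genes were nearest to a region and 2 of these were higher (3 of the 16), and of the 14 epidermal transcription factor genes with a region 2 were higher. *Zfp750*, a regulator of epidermal differentiation, was 255.9 and 261.8 CPM against 356.9 and 337.0 CPM (0.42). Among the AP-1, Grainyhead, Hippo and ephrin genes with a region, 0 passed in either direction at an unadjusted P under 0.05 by edgeR.

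Endothelial markers were low in all libraries and higher in the WT wounded than in the WT unwounded ones, and other cell types were also read from their markers. By the study's methods the sort left out endothelial cells and leukocytes by surface markers. The 12 endothelial markers summed to 7.36 and 8.81 CPM in the WT unwounded and 36.6 and 23.0 CPM in the WT wounded libraries, to 2.0 CPM in the *Grhl3*-cKO unwounded and to 17.7 and 24.7 CPM in the *Grhl3*-cKO wounded. Their most abundant gene, *Vwf*, was at most 7.70 CPM. Of 11 endothelial markers tested 4 were higher in WT wounded libraries at an unadjusted P under 0.05, beside a background of 3.18% over all genes. One of them, *Cdh5*, was nearest to 8 of the regions. The sums of 8 leukocyte markers were 7.75 and 16.2 CPM in WT unwounded and 16.8 and 36.3 CPM in WT wounded libraries, led by *Cd74*, with *Cd3e* at 0 in all libraries. Those of 7 fibroblast markers were 28.7 and 14.5 against 19.6 and 47.8 CPM, led by *Col3a1*. The 7 mural markers summed to 131.8 and 124.4 against 155.6 and 88.3 CPM, led by *Cspg4*, and the 6 melanocyte markers to 36.0 and 36.7 against 34.8 and 24.8 CPM, led by *Mitf*. The fibroblast and mural sums thus overlapped between groups. The most abundant gene made up most of some sums, so sums without it were added after the values were seen. Without *Cspg4* the mural sums were 1.29 and 3.93 CPM in WT unwounded and 30.6 and 12.3 CPM in WT wounded libraries. Of 5 mural markers tested 2 were higher at an unadjusted P under 0.05, beside the same background of 3.18%. Without *Mitf* the melanocyte sums were 2.52 and 1.07 against 9.55 and 5.51 CPM, and without *Cd74* the leukocyte sums were 3.74 and 2.2 against 7.03 and 6.75 CPM. The part of these cells in the differences above, and in the peak lists, was not tested.

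Markers of suprabasal and hair follicle keratinocytes moved as well. Of 7 suprabasal markers 4 were lower after wounding in WT keratinocytes and 4 were higher in *Grhl3*-cKO wounded than WT wounded keratinocytes, at an unadjusted P under 0.05 (backgrounds 1.67% and 1.96%). Their sums were 6359 and 6998 CPM in WT unwounded, 3740 and 5414 CPM in WT wounded and 6755 and 8424 CPM in *Grhl3*-cKO wounded libraries. Of 7 hair follicle markers, led by *Krt79*, 3 were lower and 0 higher in WT wounded keratinocytes. Their sums were 2878 and 2357 CPM in WT unwounded, 2311 and 1601 CPM in WT wounded and 1370 and 1983 CPM in *Grhl3*-cKO wounded libraries. In bulk samples, fewer cells of a type and less RNA per cell cannot be told apart.

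In the comparison of *Grhl3*-cKO wounded with WT wounded keratinocytes, caldesmon and a laminin chain gene had the smallest P among the nearest genes. *Cald1* was 109.8 and 161.2 CPM in WT wounded and 49.3 and 35.4 CPM in *Grhl3*-cKO wounded libraries, a log2 difference of −1.68 ± 0.25 (SE), with a Benjamini-Hochberg adjusted p of 0.0729 in the quasi-likelihood test of edgeR. By that test it was 0.00522 without WT wounded replicate 1, 0.0424 without WT wounded replicate 2 and 1 without *Grhl3*-cKO wounded replicate 2, and by DESeq2 the adjusted p was 8.7e-06. *Lamb1*, a laminin chain, was 72.8 and 50.1 CPM against 25.9 and 30.5 CPM (−1.12), and *Ppp1r3b*, a glycogen-targeting phosphatase subunit, 16.4 and 5.79 CPM against 1.23 and 0.483 CPM (−3.68, and −4.49 to −2.74 leaving out a replicate). In the other direction were *Fam71a* (1.49), *Ddr2*, a collagen receptor kinase (1.30), and *H60c*, a stress ligand of lymphocyte receptors (1.25). *Ddr2* was 17.5 and 24.5 CPM in WT wounded and 60.8 and 42.6 CPM in *Grhl3*-cKO wounded libraries. The WT wounded libraries are the same in both RNA comparisons, so values of a gene in them are not independent.

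Of the 4372 nearest genes tested, 258 passed at an unadjusted P under 0.05, 5.90%, beside a background of 4.04%. In *Grhl3*-cKO wounded keratinocytes 116 were higher (background 1.96%) and 142 lower (background 2.08%). The count was 388 without WT wounded replicate 2, 8.95% beside 6.16% over all genes. After Benjamini-Hochberg correction of the edgeR quasi-likelihood test 0 had an adjusted p under 0.05 (background 0%). DESeq2 gave 1, and leaving out a replicate gave 3 without WT wounded replicate 1 and 12 without WT wounded replicate 2. The median log2 fold change was −0.018, against −0.009 over all genes. The share was 6.86% for genes nearest to regions of both wounded samples only and 3.97% for those of all 4 lists.

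By list, 5 of the 13 leading edge and actin genes with a region were lower in *Grhl3*-cKO wounded keratinocytes and 0 were higher, as were 4 of 7 integrin genes and 3 of 8 EGF family genes, beside a background of 2.08% lower. With or without a region, 8 of 28, 5 of 11 and 3 of 11 genes of these lists were lower. Of the AP-1 and stress genes with a region 2 of 7 tested were higher and 0 lower, beside a background of 1.96% higher. Of the epidermal transcription factor genes with a region 2 of 14 were higher and 1 lower, and of the TGF-β genes 1 of 11 was lower. In the whole lists 3 of 10 AP-1 and stress genes tested were higher and 0 lower. Of 19 epidermal transcription factor genes 3 were higher and 1 lower, and of 16 TGF-β genes 1 was lower. In the junction, protease, Grainyhead, Hippo and ephrin lists 0 with a region passed. *Nrg1* was 15.2 and 20.4 CPM in WT wounded and 10.7 and 4.90 CPM in *Grhl3*-cKO wounded libraries (log2 fold change −1.19, and −1.85 to −0.73 leaving out a replicate). *Itgb6* was 76.4 and 49.0 CPM against 47.9 and 33.0 CPM (−0.63, and −0.27 without WT wounded replicate 1). *Itga2* had a log2 fold change of −0.72, and of −0.03 without WT wounded replicate 2. *Tgfb2*, the TGF-β ligand with 5 regions, was 17.6 and 15.8 CPM against 8.88 and 4.56 CPM (−1.31). For *Pdpn* the groups overlapped, at 13.1 and 49.4 CPM against 21.3 and 4.01 CPM. The mural markers moved with these genes: 3 of 5 tested were lower in *Grhl3*-cKO wounded keratinocytes, with sums of 155.6 and 88.3 CPM in WT and 75.5 and 72.6 CPM in *Grhl3*-cKO wounded libraries, or without *Cspg4* 30.6 and 12.3 against 3.81 and 8.96 CPM, and their part was not tested.

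Within *Grhl3*-cKO keratinocytes there was 1 unwounded library, so wounding was described by size alone. A nearest gene was counted if both wounded libraries were at least 2-fold from the unwounded one. Of 4372 genes, 226 were higher, 5.17% beside a background of 5.69%, and 164 were lower, 3.75% beside a background of 3.89%. Both shares were near the background. *Pdpn* was 0.227 CPM in the unwounded and 21.3 and 4.01 CPM in the wounded libraries, and *Nav1* 0.831 CPM against 21.1 and 5.94 CPM. *Tmtc1* was 32.0 CPM against 9.50 and 8.63 CPM. The unwounded library was the one with high *Xist* and no *Ddx3y* counts, so that sex and wounding cannot be told apart here. Without genes of the sex chromosomes, a setting chosen after seeing the data, 379 of 4247 genes met the rule, 225 higher and 154 lower. The share over all genes is not given for this setting of the rule or for those described further on.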

How the data were processed

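The authors aligned ATAC-seq reads to mm10 with bowtie2 and called broad peaks with MACS2, with no control by the peak names. Duplicate removal and transposase offset are not given in the sources used here. The deposited columns used are fold enrichment and −log10 of the p-value and q-value; the deposited score was not used. The deposited RNA values are counts per gene; the authors' notes name FastQC and kallisto. Rows naming no gene were left out, among them ambiguous (1.34 to 1.45%) and not unique reads (3.46 to 4.74%).

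Peaks were merged with bedtools 2.31.1. Nearest genes were GENCODE protein-coding genes by transcript start, and 20487 of 21924 symbols matched the counts. Counts of all 7 libraries were fitted with edgeR 4.0.16 (TMM, quasi-likelihood, 14045 of 24421 genes after a filter on low counts), tested on simulated data; DESeq2 1.42.0 was an alternative. CPM of single genes used TMM library sizes; marker sums, *Krt14* and *Vwf* used plain ones. The 2-fold rule used log2 CPM with a prior count of 2.

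Named genes were those nearest to the 10 regions highest in each measure, the 5 with most regions, those named for the study's sequencing results, up to 3 rises and 3 falls per RNA comparison among the 10 smallest P (groups apart, mean log2 CPM of at least 1), and per list the genes with the smallest P and most regions. *Maf*, *Runx1* and *Cdh5* were added after their values were seen. The named genes whose fold changes were tried under other settings were also picked after their values were seen. Some items are not reported here. The regions and lists were chosen with earlier results of these data known.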

Additional observations from a re-analysis of the deposited data

Results flagged for a closer look

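For 2 of the named genes the wounded libraries moved one way in every WT comparison of libraries and the other way in every *Grhl3*-cKO one. *Tgfb2* had a mean log2 difference of 0.32 in WT and −1.96 in *Grhl3*-cKO keratinocytes. *Zfp750* had 0.42 in WT and −0.34 in *Grhl3*-cKO keratinocytes. The difference between genotypes was not tested, and both *Grhl3*-cKO values rest on the 1 unwounded library.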

How the results depend on the processing

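The number of regions only in WT wounded keratinocytes was 1428 with lists of equal length and 15902 without the *Grhl3*-cKO unwounded list, and stayed within 1.5 times of 9852 under the 7 other settings run. The regions were not the same ones throughout: 6261 of 9509 at a q of at most 0.01 and 3140 of 6845 at a fold enrichment of at least 4 overlapped the 9852. The promoter share was 9.50% at 500 bases, 14.5% at 2000 bases, 15.4% with starts of all gene types, 14.6% at a q of at most 0.01 and 16.4% with lists of equal length. The AP-1 share was 32.7% in the central 400 bases and 28.2% in whole regions, (31.7% and 34.4% over all regions), and the GRHL share 5.13% and 4.14% (4.71% and 5.73%), since longer windows hold more letters.

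Nearest genes passing in WT wounded against WT unwounded numbered 194 with starts of any gene type (6.65%). They numbered 133 for regions within 10 kb (6.58%) and 57 within 1 kb (6.24%). Fewer genes were tested in these settings, and the share over all genes was 4.84%. With a replicate block the number was 563, 13.9% beside 10% over all genes, and 204 in *Grhl3*-cKO wounded against WT wounded, 5.04% beside 3.28%. After adjustment 101 and 0 nearest genes passed with the block, and 55 and 26 with no filter on low counts. The share over all genes after adjustment is not given for these settings. Before adjustment the shares with no filter were 7.98% and 7.65%, beside 5.57% and 4.77% over all genes. With no filter the genes gaining a call in the first comparison included *Nav1*, *Limch1*, *Tmtc1*, *Pdpn*, *Timp3*, *Gjb6*, *Itga2* and *Nrg1*. In the second they included *Cald1*, *Lamb1*, *Ppp1r3b*, *Ddr2*, *Fam71a* and *H60c*. Those named for the first comparison also passed with the block, as did *Cd24a* and *Zfp750*. The numbers of the replicates are shared labels only, with a correlation of deviations of 0.154 and −0.0386, so the block was not used further. Leaving out a replicate gave 257 to 354. For *Grhl3*-cKO wounded against WT wounded the number was 129 within 10 kb and 46 within 1 kb, and 203 to 388 leaving out a replicate. For these distances the shares were 6.38% and 5.03%, beside 4.04% over all genes. The cause of these changes in number was not tested. Past 2-fold within *Grhl3*-cKO, 155 genes had at least 10 counts in every library, and 721 and 784 met the rule when 1 wounded replicate was left out, since fewer libraries had to pass. The log2 fold change of *Timp3* was −0.06 without WT wounded replicate 1 and 1.64 without WT wounded replicate 2. Of the 25 log2 fold changes tried under these settings it was the only one to change direction. Leaving out a replicate left 1 library in a group, assumed to vary like the others.

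With 1 pooled ATAC-seq sample per condition, a list gives no value for a region under its threshold. The RNA groups tested had 2 libraries each, and the effect of that size on the number of calls was not tested.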
